A study of Homo sapiens with 30 samples.

Results

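The genes described here encode the enzymes and cofactors that remove the 5' cap of messenger RNA and degrade the body behind it in the 5' to 3' direction. Members were taken by symbol from a list of 10 genes, and 9 of them had a row among the 16009 genes of the deposited table, namely DCP2, NUDT16, DXO, DCP1A, DCP1B, EDC3, EDC4, XRN1 and XRN2. The remaining one, DCPS, was not analysed here. The study profiled capped 5' ends in MEL624, a human melanoma cell line, with m6Am-Exo-Seq, in which uncapped fragments are digested by an exonuclease and an anti-m6A antibody pulls down methylated 5' ends. Control cells were wild type cells that carried a random sgRNA, and the other genotype was a PCIF1 knockout (KO). Each genotype gave 3 input libraries, taken before the antibody, and 3 immunoprecipitation (IP) libraries made with antibody 4 of the study, so that 12 of the 30 samples were used. The other 18, with 1 library for each antibody and genotype, entered no comparison. The design text speaks of biological replicates, but nothing ties KO replicates to 1 clone or several. KO and clone therefore cannot be told apart, and p-values measure the spread between these libraries only.

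Decapping is the committed step of 5' to 3' mRNA decay. After the poly(A) tail has been shortened, DCP2, a Nudix family hydrolase, cuts the cap together with its activators DCP1A, DCP1B, EDC3 and EDC4, and the exonuclease XRN1 digests the exposed body in the cytoplasm. XRN2 is the nuclear counterpart and acts in transcription termination and rRNA processing, NUDT16 is a second Nudix hydrolase with decapping activity, and DXO removes incomplete or non-canonical caps. PCIF1 methylates an adenosine at the first transcribed position to give m6Am, a mark found only on transcripts whose first base is A. The question here is how the capped 5' ends of the decay enzymes' own mRNAs behaved in this assay.

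Because the mark sits on the first base, the annotated start is shown for the members on which the results turn. Each line gives 15 bases before the start and 15 bases from the start on, as written by RefSeq on GRCh38.p14 in the direction of transcription, with the first transcribed base in capitals. NUDT16 and XRN2 have a second start listed.
DCP1A: gactccgcccccaccAgaggggctaggctc
XRN1: gggcggtgtgttgtcAtccgcggagcgacg
EDC4: ctggcaggttccgggAgcctcggctcgtgg
DCP2: ccgccccttccccttCtcgtctccgttgga
NUDT16 canonical: ctctgcccattgggcCttcgggacagcaga
NUDT16 upstream: cggcgccccgcccccAggcgcctaggttcc
XRN2 canonical: gtgctggtgccctctGccgctgctcccgtc
XRN2 downstream: cgccaggcggccgccAcactcgagcccggg
DCP1A (chr3:53347529-53347558, minus strand), XRN1 (chr3:142448023-142448052, minus strand) and EDC4 (chr16:67873037-67873066, plus strand) begin with A at the canonical start. DCP2 (chr5:112976783-112976812, plus strand) begins with C. NUDT16 begins with C at its canonical start (chr3:131381759-131381788, plus strand) and with A at a start 103 bases upstream (chr3:131381656-131381685). XRN2 begins with G at its canonical start (chr20:21303316-21303345, plus strand) and with A at a start 167 bases downstream (chr20:21303483-21303512). The canonical starts of DCP1B, EDC3 and DXO begin with G, so that 3 of the 9 members start with A. Which start the authors' windows were centred on is not given in the sources used here.

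Reads over the listed genes ranged from 2836120 to 4094070 in the inputs of both genotypes, from 4035815 to 4625190 in the control IPs and from 1753164 to 2177874 in the KO IPs, which were thus the shallowest. PCIF1, the targeted gene, gave 57.8, 52.5 and 49.4 CPM (library-scaled read counts, back-transformed from the deposited log2 values) in the control inputs and 70.4, 78.0 and 77.1 in the KO inputs. In the IPs it gave 30.1, 23.7 and 26 in control and 35.4, 41.0 and 28.7 in KO cells. A read at the gene start can lie outside the edited part, so these values check nothing about the labels. Of 8 melanocyte lineage markers, MITF alone had a row (8.25 to 14 CPM in the control inputs), and none of 17 markers of keratinocytes, fibroblasts, leukocytes or endothelium did, so that the cell type label could not be checked here.

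In control cells the decapping machinery split into mRNAs whose 5' ends were enriched by the antibody and mRNAs whose 5' ends were depleted. DCP1A and XRN1 rose over input, while DCP2, EDC3, EDC4 and NUDT16 fell, and DCP1B, DXO and XRN2 did not pass the test (limma, adjusted p over all 16009 genes under 0.05). That is 6 of 9 members, 2 higher and 4 lower, against 55.9% of all genes called in this comparison (27.7% higher and 28.2% lower), so the share called was close to the background. Input and IP libraries did not overlap for 7 of 9 members, against 66.5% of all genes. The members' median log2 difference was -0.08, and that of all genes was -0.01. Directions are relative to the deposited scaling. Centring each library on ribosomal protein mRNAs moved the median of all genes to 1.17, under which 8 members were higher and 1 lower, with NUDT16, EDC3 and EDC4 turning from lower to higher. Of all 16009 genes, 10178 were higher and 933 lower on that scale.

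DCP2, the catalytic subunit, gave 32.9, 32.2 and 25.8 CPM before the antibody and 9.39, 9.78 and 8.96 CPM after it. All 3 IPs lay below all 3 inputs. The log2 difference of -1.68 ± 0.18 (standard error, here and below; adjusted p = 9.61e-08) corresponds to a 3.21-fold lower level in the IP and lies at the 9.09 percentile of all genes. DCP2 was also lower when libraries were centred on ribosomal protein mRNAs (-0.50, adjusted p = 0.0290).

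The regulatory partner DCP1A did the opposite. It gave 26.1, 28 and 30.1 CPM in the inputs against 80.7, 82.2 and 94.3 CPM in the IPs, a log2 enrichment of 1.61 ± 0.16 (adjusted p = 4.27e-08), or 3.05-fold. The groups did not overlap, and the value stood at the 92.7 percentile of all genes. Its paralog DCP1B, which can take the same place beside DCP2, gave 12.4, 11.1 and 12.9 CPM in the inputs and 16.1, 15.3 and 19.4 CPM in the IPs. These groups did not overlap either, but the difference of 0.48 ± 0.20 missed the threshold (adjusted p = 0.0532, 95% interval 0.05 to 0.90). It lies close to the line, since 12 of 22 alternative settings called it, with adjusted p between 4.99e-07 and 0.191.

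The scaffold and enhancer proteins EDC3 and EDC4, which hold DCP2 and DCP1 together, were both depleted. EDC4 gave 81.8, 79.8 and 72.2 CPM in the inputs against 50.6, 48.1 and 42.7 CPM in the IPs (-0.73 ± 0.11, adjusted p = 1.09e-05). EDC3 gave 72.1, 65.1 and 62.5 CPM in the inputs and 49.0, 43.4 and 42.7 CPM in the IPs (-0.56 ± 0.12, adjusted p = 0.000377). Neither gene had an IP library within the range of its inputs. EDC4 was thus depleted on the deposited scaling, and its annotated start is an A, like those of DCP1A and XRN1. Of 4244 protein-coding genes whose canonical RefSeq start is an A, 17.1% were called lower and 42.0% higher in this comparison. Of all 9182 protein-coding genes with a matched start, 28.4% were called lower and 31.9% higher.

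NUDT16 fell less, from 58.4, 64.0 and 60.8 CPM to 45.7, 41.0 and 44 CPM (-0.49 ± 0.14, adjusted p = 0.00712), again with no overlap. DXO had few reads, between 4 and 21 in any library. It gave 3.84, 3.97 and 4.45 CPM in the inputs against 4.27, 3.49 and 5.41 CPM in the IPs, and the interval of its difference (-0.73 to 0.89) is the widest among the members, so that changes of that size were not detectable at this depth.

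The 5' to 3' exonucleases differed from each other. XRN1, the cytoplasmic enzyme, gave 17.5, 16.3 and 14.7 CPM in the inputs against 34.5, 34.4 and 25.2 CPM in the IPs. Every IP was above every input, with a log2 enrichment of 0.94 ± 0.19 (adjusted p = 0.000242) or 1.93-fold. XRN2, the nuclear enzyme, gave 71.6, 71.3 and 64.6 CPM in the inputs and 61.8, 67.0 and 66.8 CPM in the IPs, and these ranges overlapped (-0.08 ± 0.13, adjusted p = 0.595, 95% interval -0.35 to 0.18).

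**Figure D1:**
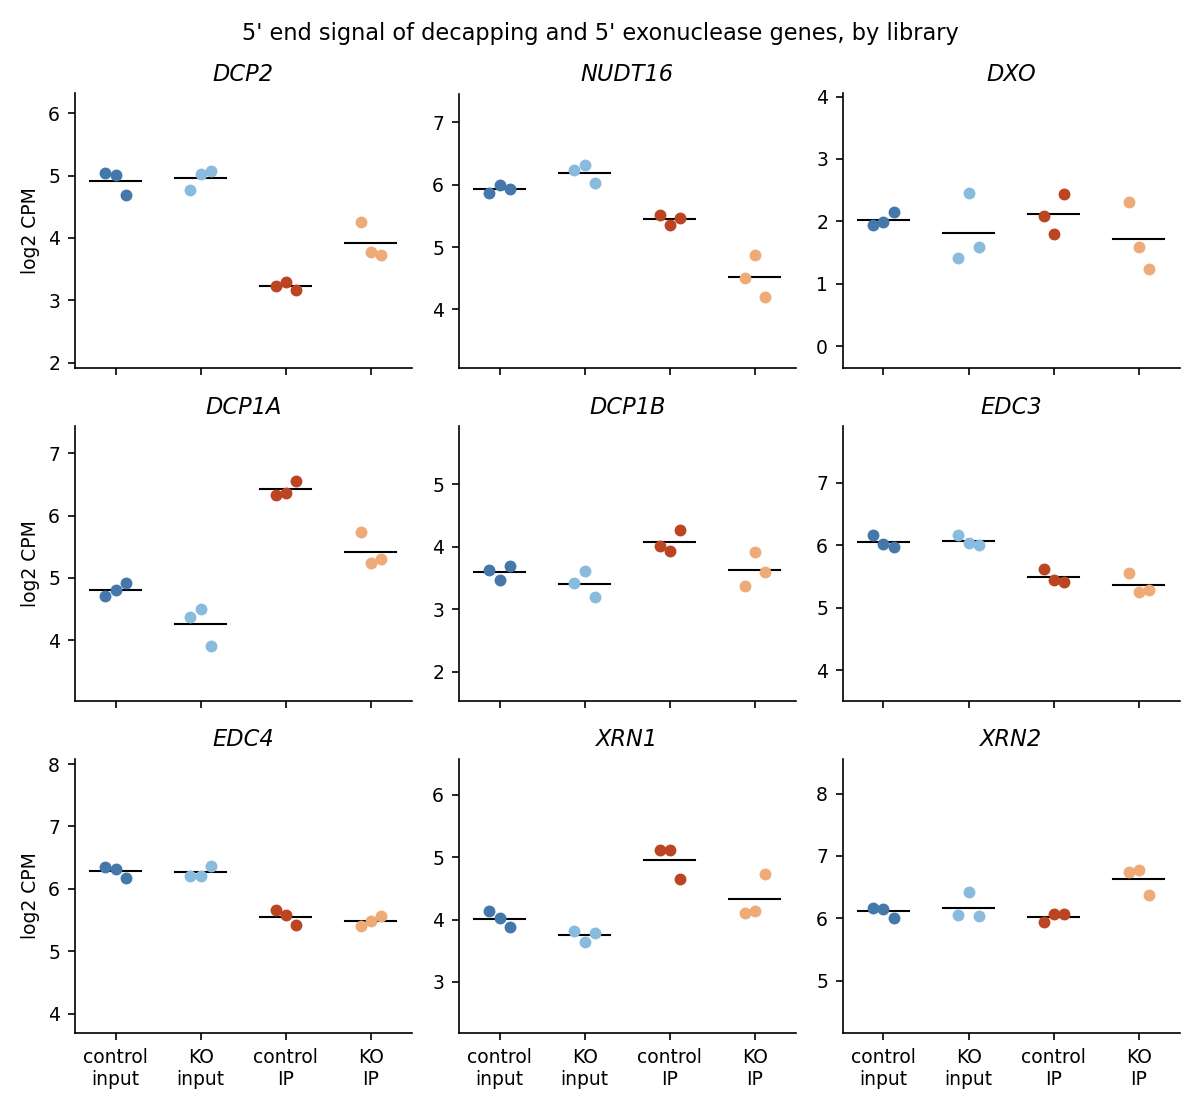
Log2 CPM of the 9 measured genes in each of the 12 libraries (points) with the mean of each group (line); the x axis gives the group, and every panel spans the same number of log2 units. DCP1A and XRN1 lie higher in the control IPs than in the control inputs, DCP2 lies lower, and NUDT16 is lowest in the KO IPs.

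The same comparison in KO cells asks which 5' ends the antibody pulled down without PCIF1. DCP1A, XRN1 and XRN2 rose over input and NUDT16, DCP2, EDC3 and EDC4 fell, 7 of 9 members, 3 higher and 4 lower, against 59.4% of all genes called (28.4% higher and 31.0% lower). Libraries did not overlap for 6 of 9, against 61.3% of all genes. DCP1B and DXO did not pass. The members' median was -0.10, and that of all genes -0.07. With libraries centred on ribosomal protein mRNAs, where the median of all genes is 0.55, the split of 3 higher and 4 lower became 4 higher and 1 lower, against 7330 higher and 2356 lower of all 16009 genes. The calls of DCP2 (-0.41, adjusted p = 0.0729), EDC4 (-0.16, adjusted p = 0.300) and EDC3 (-0.0874, adjusted p = 0.580) were lost on that scale.

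NUDT16 had the largest difference in KO cells. It gave 75, 79.9 and 65.4 CPM in the KO inputs and 22.6, 29.3 and 18.4 CPM in the KO IPs, a log2 difference of -1.67 ± 0.14 (adjusted p = 5.47e-09) or a 3.18-fold lower level in the IP. This places it at the 9.48 percentile of all genes, against the 34.5 percentile in control cells. The IP values rest on 32 to 60 reads.

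DCP2 remained depleted, with 27.3, 32.6 and 33.5 CPM in the KO inputs and 19.2, 13.7 and 13.2 CPM in the KO IPs (-1.03 ± 0.18, adjusted p = 4.64e-05). Its KO IP values rest on 23 to 39 reads. DCP1A gave 20.7, 22.5 and 15.0 CPM in the inputs and 53.0, 37.6 and 39.6 CPM in the IPs (1.16 ± 0.16, adjusted p = 3.17e-06). For both genes the IPs and inputs did not overlap. EDC4 (-0.78 ± 0.11, adjusted p = 4.30e-06) and EDC3 (-0.70 ± 0.12, adjusted p = 3.32e-05) were depleted by amounts similar to those in control cells. EDC4 gave 74.1, 74.2 and 82.9 CPM in the KO inputs and 42.3, 44.9 and 47.6 CPM in the KO IPs. EDC3 gave 71.8, 65.6 and 64.4 CPM in the inputs and 47.2, 38.1 and 39.0 CPM in the IPs.

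XRN1 gave 14.1, 12.5 and 13.7 CPM in the KO inputs and 17.2, 17.6 and 26.4 CPM in the KO IPs (35 to 46 reads). The third IP library was the highest, and without it the enrichment of 0.57 ± 0.19 (adjusted p = 0.0129) became 0.37 (adjusted p = 0.0868). XRN2 gave 66.1, 85.6 and 66.0 CPM in the inputs and 107, 109 and 82.5 CPM in the IPs. It was called (0.46 ± 0.13, adjusted p = 0.00398), although the lowest IP lay below the highest input. DCP1B gave 10.7, 12.3 and 9.17 CPM against 10.4, 15.2 and 12.1 CPM (0.22 ± 0.20, adjusted p = 0.362), and DXO gave 2.66, 5.49 and 3.0 CPM against 4.98, 3.0 and 2.37 CPM (-0.10 ± 0.39, adjusted p = 0.837). Inputs and IPs overlapped in both, and the KO IPs of DCP1B hold 21 to 31 reads.

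**Figure D2:**
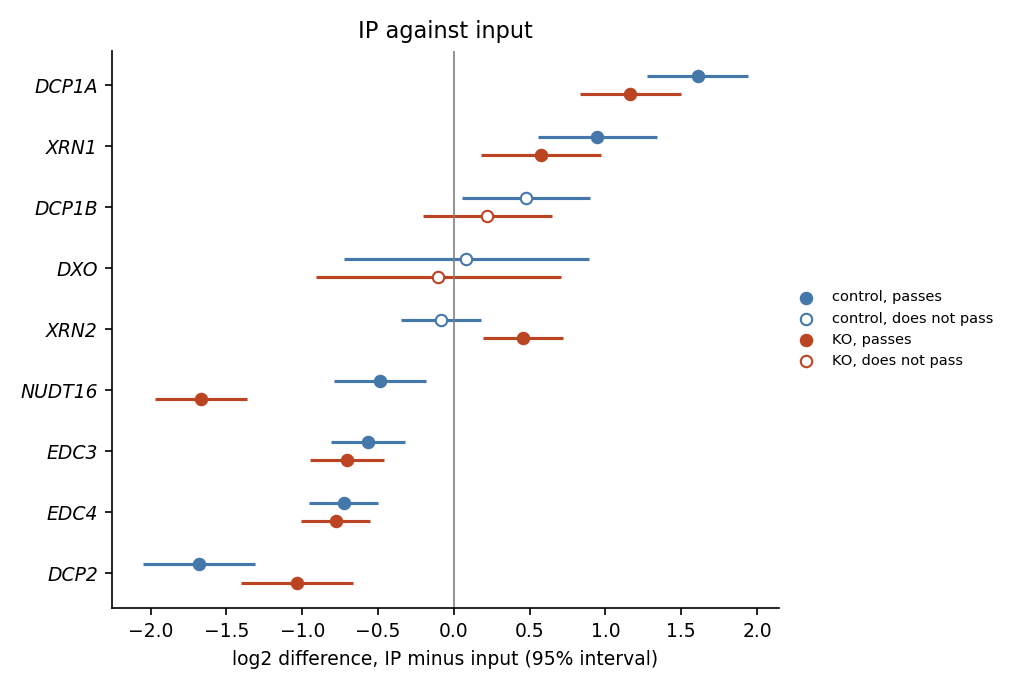
Log2 difference of IP minus input (x axis) for each gene (y axis) in control and KO cells, with 95% intervals of the limma fit; filled points passed an adjusted p of 0.05 and open points did not. DCP1A is highest in both genotypes, DCP2 is lowest in control cells (-1.68) and NUDT16 is lowest in KO cells (-1.67).

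The difference between both enrichments asks whose antibody signal, relative to input, depended on the genotype. Among the decay enzymes, NUDT16 was the member more enriched in control cells and XRN2 the member more enriched in KO cells, and the other 7 did not pass. These 2 of 9 compare with 28.8% of all genes called for the difference of enrichment (15.8% higher in control and 13.0% higher in KO cells). The members' median difference was 0.18, and that of all genes was 0.06. Centring on ribosomal protein mRNAs, which moves the median of all genes to 0.62, gave 6 members more enriched in control cells and 0 in KO cells (limma), against 6023 and 785 of all 16009 genes.

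For NUDT16 the difference, control minus KO, was 1.18 ± 0.20 (adjusted p = 0.000205, 95% interval 0.76 to 1.61), or 2.27-fold. It stood at the 91.8 percentile of all genes and was called in each of the 12 fits that left out 1 library, with values between 1.02 and 1.36. On the deposited scaling NUDT16 lay below its input in both genotypes. With centring on ribosomal protein mRNAs it lay above input in control cells (0.70, adjusted p = 0.000606) and below it in KO cells (-1.05, adjusted p = 8.2e-06). Relative to the median of all genes on that scale, NUDT16 stood at -0.47 in control and -1.60 in KO cells.

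For XRN2 the difference was -0.54 ± 0.18 (adjusted p = 0.0275, 95% interval -0.91 to -0.17). This call is fragile. It was lost without control input 1 (-0.51, adjusted p = 0.0593) or 2 (-0.52, adjusted p = 0.0632), without KO input 1 (-0.48, adjusted p = 0.0736) or 3 (-0.48, adjusted p = 0.0600), without control IP 1 (-0.50, adjusted p = 0.0653), and without KO IP 1 (-0.48, adjusted p = 0.0597) or 2 (-0.47, adjusted p = 0.0697). It was also lost without the mean-variance trend (adjusted p = 0.0825), and centring on ribosomal protein mRNAs turned it to 0.03 (adjusted p = 0.926), which lies 0.60 below the median of all genes on that scale.

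DCP2 was the next nearest to the line. Its difference of -0.65 ± 0.25 did not pass (adjusted p = 0.0583, 95% interval -1.17 to -0.13) and was -0.0821 (adjusted p = 0.839) with centring on ribosomal protein mRNAs, and 5 of 21 alternative settings called it, with adjusted p from 0.0301 to 0.839. DCP1A, with a difference of 0.44 ± 0.23 (adjusted p = 0.153, 95% interval -0.03 to 0.92), passed without KO input 3 (0.62, adjusted p = 0.0301), without KO IP 1 (0.60, adjusted p = 0.0464) and with centring on ribosomal protein mRNAs (1.01, adjusted p = 0.00122). XRN1 stood at 0.37 ± 0.27 (adjusted p = 0.323, 95% interval -0.19 to 0.93). It passed in 1 of 21 alternative settings, centring on ribosomal protein mRNAs (0.94, adjusted p = 0.00883), where the median of all genes is 0.62. None of these intervals shows that enrichment was alike in both genotypes.

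On the deposited scaling, the activators EDC3 (0.14 ± 0.17, 95% interval -0.21 to 0.49) and EDC4 (0.05 ± 0.15, 95% interval -0.27 to 0.38) had the narrowest intervals. These exclude a difference as large as that of NUDT16 on the same scaling. DCP1B (0.25 ± 0.29, 95% interval -0.35 to 0.85) and DXO (0.18 ± 0.55, 95% interval -0.96 to 1.33) were measured less precisely. With centring on ribosomal protein mRNAs, EDC3 (0.71, limma, adjusted p = 0.00389), EDC4 (0.62, adjusted p = 0.0107) and DCP1B (0.82, adjusted p = 0.0335) passed. DXO did not (0.75, adjusted p = 0.294), and the median of all genes on that scale is 0.62.

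The inputs compare the decay enzymes' 5' ends between genotypes before the antibody, and the share of members called was that of all genes. DCP1A was lower in the KO inputs by the test, with a log2 difference of -0.55 ± 0.16 (adjusted p = 0.0295), and it was the only member called of 9, against 11.2% of all genes (5.56% higher and 5.67% lower in KO cells). All 3 KO inputs (15.0 to 22.5 CPM) lay below all 3 control inputs (26.1 to 30.1 CPM). The call was lost without control input 1 (-0.60, adjusted p = 0.0501), control input 2 (-0.55, adjusted p = 0.0837), control input 3 (-0.50, adjusted p = 0.112) or KO input 3 (-0.38, adjusted p = 0.156), and also without the mean-variance trend (adjusted p = 0.103) or with centring on ribosomal protein mRNAs (-0.51, adjusted p = 0.0532). In these bulk libraries, fewer cells with a transcript and less of it per cell cannot be told apart.

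The other input differences lay between -0.26 (XRN1, 95% interval -0.66 to 0.13) and 0.26 (NUDT16, 95% interval -0.04 to 0.56). For both genes, as for DCP1A, the inputs of the genotypes did not overlap, 3 of 9 members against 31.7% of all genes. For DCP2 the difference was 0.04 ± 0.18, for XRN2 0.06 ± 0.13, for EDC3 0.02 ± 0.12 and for EDC4 -0.02 ± 0.11. DXO (-0.21 ± 0.39) and DCP1B (-0.19 ± 0.20) completed the list.

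Between the IP libraries, 5 of 9 members differed by genotype, 2 higher and 3 lower in KO cells, against 49.0% of all genes (23.0% higher and 26.0% lower). DCP1A (-1.0 ± 0.16, adjusted p = 3.84e-05), NUDT16 (-0.92 ± 0.14, adjusted p = 2.93e-05) and XRN1 (-0.63 ± 0.19, adjusted p = 0.00884) were lower in the KO IPs. DCP2 (0.69 ± 0.18, adjusted p = 0.00307) and XRN2 (0.60 ± 0.13, adjusted p = 0.000583) were higher there. The genotypes' IPs did not overlap for 5 of 9 members, against 54.6% of all genes. These were DCP1A, NUDT16, DCP2, XRN2 and DCP1B (-0.44 ± 0.20, adjusted p = 0.0781), while XRN1 had 1 KO library, at 26.4 CPM, above the lowest control library, at 25.2 CPM. Centred on ribosomal protein mRNAs, where the median of all genes falls to -0.57, the split of 2 higher and 3 lower became 0 higher and 6 lower, against 1575 higher and 7544 lower of all 16009 genes. The calls of DCP2 (0.17, adjusted p = 0.475) and XRN2 (0.0761, adjusted p = 0.658) were lost. These comparisons use the same IP libraries as the difference of enrichment, so the values stand side by side and not as separate evidence.

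Set beside the inputs, the IP differences take several forms. For NUDT16 the input difference (0.26) and the IP difference (-0.92) have opposite signs, and for DCP1A both are lower in KO cells (-0.55 and -1.0). For DCP2 and XRN2 the inputs differed by 0.04 and 0.06 and the IPs by 0.69 and 0.60.

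**Figure D3:**
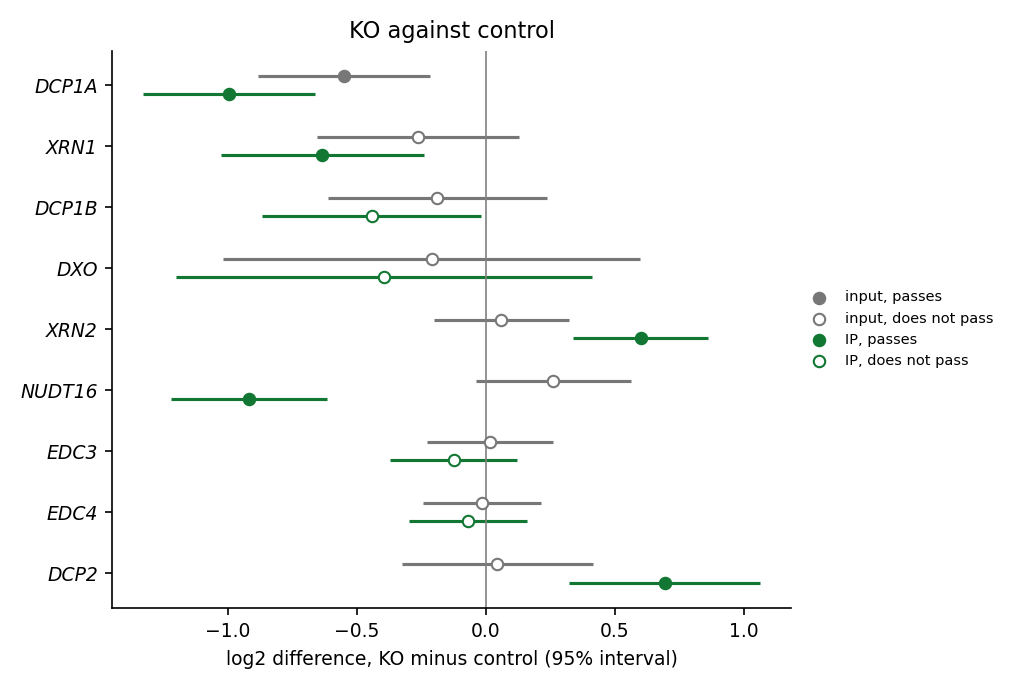
Log2 difference of KO minus control (x axis) for each gene (y axis) in the inputs and in the IPs, with 95% intervals of the limma fit; filled points passed an adjusted p of 0.05. In the inputs DCP1A alone passed (-0.55), and in the IPs DCP1A, NUDT16 and XRN1 were lower and DCP2 and XRN2 higher.

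The members can be set against the first base of their starts. Among 9182 protein-coding genes of the table whose RefSeq start equals the canonical GENCODE start, 4244 (46.2%) begin with A. Their median log2 enrichment was 0.34 in control and -0.03 in KO cells, with a median difference of 0.38. The 1021 genes that begin with C had medians of -0.52, -0.41 and -0.10, and the 3898 that begin with G had medians of -0.17, -0.25 and 0.06. Of the members that begin with A, DCP1A (1.61) and XRN1 (0.94) lay above the median of such genes in control cells and EDC4 (-0.73) below it. Their differences between genotypes, 0.44, 0.37 and 0.05, lay on both sides of the A-start median, and none passed the test. DCP2, which begins with C, lay below the C-start median in both genotypes.

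NUDT16 lay high within its class by annotation. Its difference of 1.18 lies near the 95th percentile (1.20) of genes that do not begin with A, and above the 75th percentile (0.80) of genes that do. Its upstream start, shown above, begins with A. XRN2 also has a second start that begins with A, and its difference was -0.54. Of the genes that begin with C, 11.6% were called more enriched in control cells, of those that begin with G, 14.2%, and of those that begin with A, 28.7%. Any part of the second starts in these differences was not tested. The table holds 1 value per gene and cannot say from which start the reads came.

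**Figure D4:**
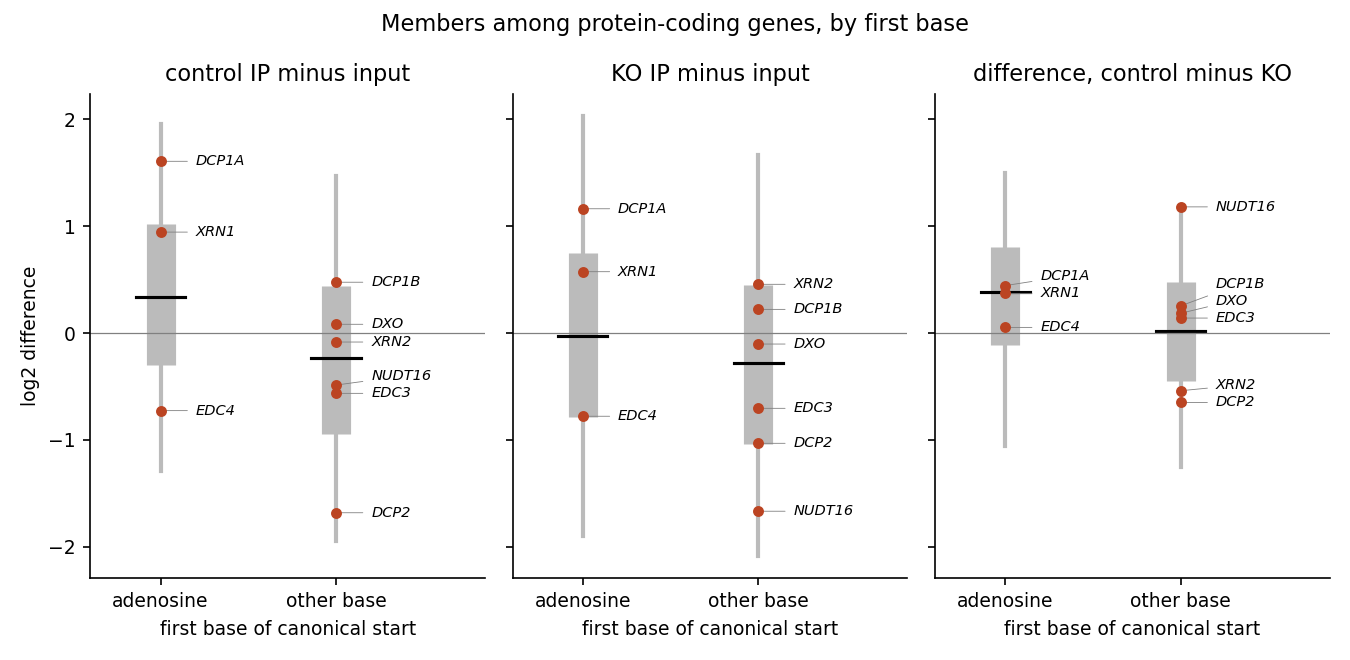
Log2 differences (y axis) in control enrichment, KO enrichment and their difference for protein-coding genes whose canonical start is adenosine (4244) or another base (4938); thin bars span the 5th to 95th percentile, thick bars the 25th to 75th, black lines the median, and red points are the members. NUDT16 is the only member above the 75th percentile of its class in the difference.

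The genes nearest in pattern to each member called for the difference of enrichment were sought among 9266 other named genes with a mean log2 CPM of at least 3. Likeness was the root mean square difference of log2 values over the 12 libraries, after centring each gene on its own mean. Nearest to NUDT16 were QSOX1, a secreted thiol oxidase (0.13), KCTD5 (0.14) and the cold-inducible RNA-binding protein gene RBM3 (0.14). Their differences of enrichment were 1.09, 1.18 and 1.03. Nearest to XRN2 were the nuclear import receptor gene IPO5 (0.11), FBXL18 (0.11) and the cell adhesion gene NECTIN2 (0.11), with differences of -0.53, -0.69 and -0.74. These 12 libraries share 4 groups, so likeness is mostly likeness of 4 means. The similar differences follow from how these genes were chosen and are not separate evidence.

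Around the core enzymes, 80 of 82 genes of 6 related lists were measured. For the difference of enrichment 23 had the higher enrichment in control cells and 7 in KO cells, that is 28.8% and 8.75%, with a median of 0.24. All genes of the table gave 15.8% and 13.0% with a median of 0.06, and protein-coding genes with a matched start gave 20.6% and 9.67% with a median of 0.19. Between inputs, 4 of the 80 were called higher and 4 lower in KO cells, 5% each, against 5.56% and 5.67% of all genes. Of the list genes named below, LSM4 (0.40, limma, adjusted p = 0.0235), LSM1 (0.50, adjusted p = 0.0481) and SMG5 (0.35, adjusted p = 0.0251) were higher there. TOB1 (-0.55, adjusted p = 0.0386) and CNOT9 (-0.38, adjusted p = 0.0443) were lower. The inputs enter the difference of enrichment. No test compared the lists with other genes.

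Of 16 decapping activators and P-body factors, 5 were higher in control and 1 in KO cells. LSM4 (1.4 ± 0.16, adjusted p = 2.27e-06) and LSM1 (1.21 ± 0.22, adjusted p = 0.000407), subunits of the Lsm ring that binds the shortened tail and activates DCP2, had positive differences. LSM4 lay below its input in both genotypes (-0.55 in control and -1.94 in KO cells), so it was less depleted in control cells. LSM1 stood at 1.09 in control and -0.13 in KO cells. EIF4E2, a cap-binding translational repressor, was more enriched in KO cells (-1.18 ± 0.22, adjusted p = 0.000447). Other genes of the Nudix family, not all of which need encode active hydrolases, had 4 and 2 of 13. Among them were NUDT16L1, the paralog of NUDT16 (1.06 ± 0.15, adjusted p = 3.77e-05), the nucleotide pool sanitiser gene NUDT1 (0.93 ± 0.17) and NUDT17 (1.56 ± 0.36). NUDT16L1 lay above its input in both genotypes (1.45 in control and 0.39 in KO cells), whereas NUDT16 lay below it in both on the deposited scaling. With centring on ribosomal protein mRNAs, NUDT16 in control cells turned to 0.70, where the median of all genes is 1.17.

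Deadenylases, which act before decapping, had 1 and 2 of 16, in the same order. The recruiting factor gene TOB1 stood at 1.30 ± 0.24, and the CCR4-NOT subunit genes CNOT9 and CNOT3 stood at -0.89 ± 0.17 and -0.61 ± 0.15. The exosome and Ski complex, which degrade from the 3' end, had 6 and 0 of 17, with EXOSC4 (0.87 ± 0.14), the helicase gene SKIC2 (1.0 ± 0.25) and the nuclease gene DIS3L (0.87 ± 0.23) as the strongest calls. DIS3L lay below its input in both genotypes (-0.77 in control and -1.64 in KO cells). Nonsense-mediated decay had 3 and 2 of 10, with SMG5 at 0.65 ± 0.14, the kinase gene SMG1, which has near-identical copies that could share its reads, at 0.90 ± 0.20 and the helicase gene UPF1 at -0.65 ± 0.14. XRN2 partners and termination factors had 4 and 0 of 8, with RPRD1B (0.89 ± 0.23) and CDKN2AIP, whose product binds XRN2 (0.82 ± 0.21). CDKN2AIP lay below its input in both genotypes (-0.36 in control and -1.17 in KO cells). XRN2 itself went the other way from the called genes of that list on the deposited scaling, but its call was fragile, as given above.

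**Figure D5:**
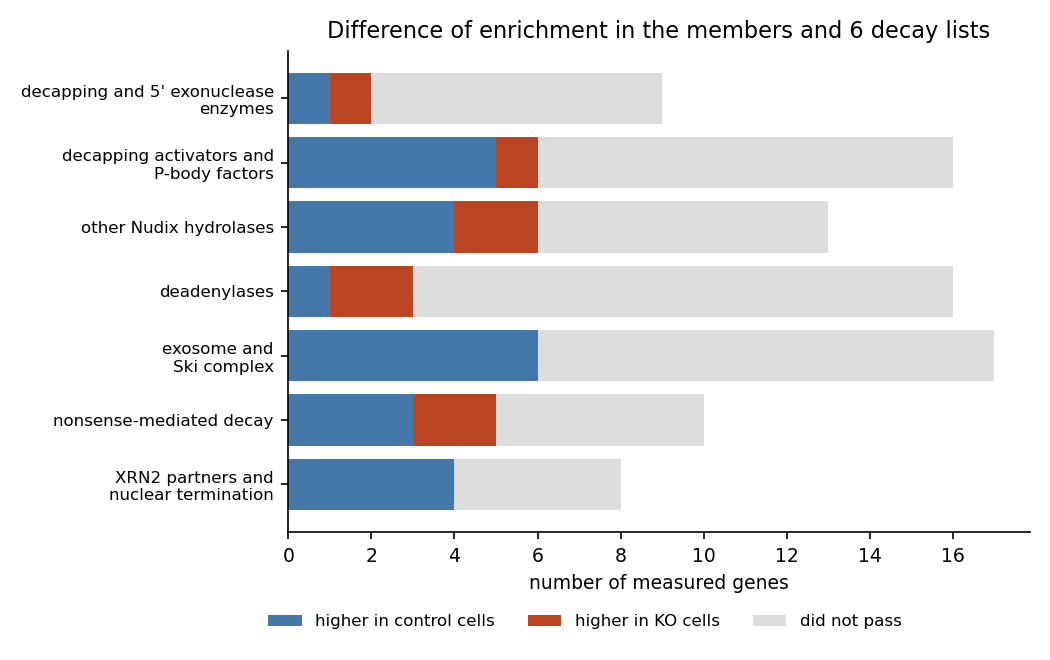
Number of measured genes (x axis) with a higher enrichment in control cells, a higher one in KO cells, or not passing, for the decapping and 5' exonuclease genes and 6 related lists (y axis), by limma at an adjusted p of 0.05. The members have 1 gene each way of 9, the exosome and Ski complex 6 and 0 of 17, and the deadenylases 1 and 2 of 16.

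The position of the members bears on how their reads can be read. NUDT16 (ENSG00000198585, chromosome 3, 131381671 to 131388830), XRN2 (ENSG00000088930, chromosome 20, 21303331 to 21389825), DXO (ENSG00000204348, chromosome 6, 31969810 to 31972290) and DCP1B (ENSG00000151065, chromosome 12, 1946053 to 2004535) each have a gene on the other strand that starts within 1000 bases in GENCODE 44 on hg38. For NUDT16 that is NUDT16-DT, 299 bases away, with mean levels of 0.728 CPM in control inputs and 3.72 CPM in KO IPs. For XRN2 it is the lncRNA ENSG00000275457, 373 bases away, with mean levels from 7.42 CPM in control inputs to 15.8 CPM in KO IPs, so that it was highest in the same group as XRN2, and its part in the XRN2 values was not tested. For DXO it is STK19, 225 bases away, which was not analysed here. The libraries were made with a directional kit, but without a stated strand setting of the counting, reads of such pairs are uncertain. The other members are DCP1A (ENSG00000272886, chromosome 3, 53283429 to 53347586), DCP2 (ENSG00000172795, chromosome 5, 112976702 to 113022195), EDC3 (ENSG00000179151, chromosome 15, 74630558 to 74696292), EDC4 (ENSG00000038358, chromosome 16, 67873052 to 67884499) and XRN1 (ENSG00000114127, chromosome 3, 142306607 to 142448062). No gene on the same strand overlapped or started close to any of the 9 canonical starts.

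Neighbouring genes were read for shifts of whole chromosome segments. Over the 10 measured genes on each side, the median input difference, KO minus control, was -0.15 beside DCP1A (own value -0.55), with 0 of 20 neighbours called. Beside NUDT16 it was 0.18 (own value 0.26), with 3 of 20 neighbours called higher, and beside DXO -0.24 (own value -0.21), with 1 called higher. For the other members the neighbours' medians lay between -0.15 and 0.06. Of 20 neighbours each, 1 was called higher and 3 lower beside EDC3, 2 lower beside XRN2 and 1 lower beside DCP1B, and none beside DCP2, EDC4 or XRN1. Over all genes these shares were 5.56% higher and 5.67% lower.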

How the data were processed

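The authors deposited a single table of log2 CPM around gene starts. The build hg38 and the tools edgeR 3.12.1, R 3.3.3, featureCounts, deepTools 3.0.2, SAMtools 1.7 and HISAT2 2.0.4 are named by the submitters' processing notes, while roles, window, annotation and strand setting are each not given in the sources used here. A small count had been added before the logarithm, since 100% of values came out as whole reads within 0.01, so log2 differences of thinly covered genes are too small. Column names give a group and a number that no label ties to a replicate letter, and columns were assigned to groups only.

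All genes passed the filter on low values (at least 3 libraries with log2 CPM of 0 or more). Group means of the 12 libraries were fitted with limma 3.58.1 in R 4.3.3, with a mean-variance trend, and p-values were adjusted over all genes (Benjamini-Hochberg). The fit was tested on simulated data. Identifiers were matched to GENCODE 44 for 15903 of 16009 genes. The genes named are PCIF1, the measured members, up to 3 genes of each related list with the smallest adjusted p for the difference of enrichment, and the 3 nearest in pattern, except 1 gene that is not reported here. Members and lists were chosen with earlier results of these data known. Intervals cover the spread between libraries only, and reads carry no molecular identifiers. Replicates within each group differed by more than sampling noise. Alternatives are given in the closing section.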

Additional observations from a re-analysis of the deposited data

Results flagged for a closer look

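Among the 9 measured genes of the decay machinery, 2 differed between the genotypes in the test of the difference itself, against 28.8% of all genes, so that the count is no more than the background. NUDT16 had a difference of enrichment, control minus KO, of 1.18 on the log2 scale (limma, adjusted p = 0.000205). It lay below input in both genotypes on the deposited scaling, but above input in control cells (0.70, limma, adjusted p = 0.000606) when libraries were centred on ribosomal protein mRNAs. The median of all genes on that scale was 1.17, and relative to it NUDT16 stood at -0.47. XRN2 had a difference of -0.54 (limma, adjusted p = 0.0275), which was lost under several settings given in the report.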

How the results depend on the processing

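Of 418 values of single members under 10 alternatives that kept all libraries, 381 kept their direction and their side of the threshold, as did 501 of 540 values with 1 library left out. Centring on ribosomal protein mRNAs changed most. It turned control enrichment to 0.70 for NUDT16, 0.62 for EDC3, 0.46 for EDC4 and 1.10 for XRN2, KO enrichment to 0.51 for DXO, the difference of enrichment to 0.0275 for XRN2 and the input difference to 0.0282 for EDC4, which for EDC4 equals the median of all genes between inputs on that scale (0.0282). The medians of the other comparisons are given in the report. Centring on the median of all genes turned XRN2 in control cells to 0.0144 and EDC4 between inputs to 0.0202. The number of members called for the difference of enrichment, 2, became 6 with ribosomal centring, 1 without the trend, and 1 to 3 with 1 library left out. For the inputs the number called, 1, became 0 by limma without the trend and 0 with ribosomal centring (1 member at an unadjusted p under 0.05 in each, and 1 called by voom), and 0 to 1 with 1 library left out.

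With 1 library left out, values near 0 changed sign, with ranges between inputs of -0.0676 to 0.14 (DCP2), -0.0328 to 0.0738 (EDC3), -0.0697 to 0.0204 (EDC4) and -0.0648 to 0.12 (XRN2). For DXO the range was -0.0805 to 0.24 in control enrichment, -0.40 to 0.22 in KO enrichment and -0.13 to 0.49 in their difference, and for EDC4 it was -0.00149 to 0.12 in that difference. Over all genes, 1798 were called between inputs, and 1177 without control input 3.

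Same-numbered input and IP libraries deviated together in part (correlations of 0.161, 0.0894 and 0.226 in control and 0.197, 0.0697 and 0.244 in KO cells, each the highest among the pairings of those libraries, a hint from the data and not the design). Because no label ties the column numbers to replicate letters, the numbers were not taken as pairs in the main fit. A replicate block within genotype left the members' calls at 7 in KO cells and 2 for the difference, and 7 in place of 6 in control cells, where DCP1B passed (0.48, adjusted p = 0.0464). A block across genotypes, chosen after seeing the data, changed no call of a member, nor did the setting log2(CPM + 1). The count tests planned with other tools were not run, because the table holds log2 values, and voom on recovered reads, also chosen after seeing the data, was run in their place. Also not run were the block within genotype for the comparisons between genotypes and a fit of only the groups compared for the difference of enrichment, which uses all groups. DXO had no value among genes with a mean log2 CPM of at least 3. The cause of these changes was not tested.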
